A study of Mus musculus with 8 samples.

Results

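Zscan4+ cells were compared with Zscan4- cells of mouse embryonic stem cell (ESC) cultures kept in regular medium (RM). The comparison used 6 of the 8 arrays of the series, 3 of RM-Zscan4+ cells and 3 of RM-Zscan4- cells, paired by the replicate number in the sample labels. All 6 samples came from 1 reporter line of strain 129/Sv, ES [129.3:zscan4cEmgfp], in which the green protein Emerald marks cells that use the Zscan4c promoter. Cells were sorted by Emerald fluorescence at the fifth day of culture, so the Zscan4- group held every cell without fluorescence, and a single line cannot show how lines differ. The remaining 2 arrays held Emerald-sorted cells grown with retinoic acid (RA), with 1 array a group. The labels call the 3 replicates biological without saying what was kept separate, so p-values measure the spread between these arrays.

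RNA of the sorted cells was labelled with Cy3 and a pooled reference RNA of mouse cell lines with Cy5 on each array, with no dye swap. The level of a probe is the log2 ratio of its processed Cy3 over its processed Cy5 intensity, and its rise is the level in Zscan4+ minus the level in Zscan4- of the same replicate number. Levels say how a sample stood against the reference pool for that probe and were not compared between probes. Each array held 42006 probes of 60 bases, and the Cy3 signal of the median probe on an RM array was 121.7 to 240.7 intensity units over its local background, against a 95th percentile of 31.01 to 48.97 in the negative control spots. Gene names were known for 128 probes. The study listed these because they were enriched in the Zscan4+ cells of the RA pair, so they are not a sample of the array, and their direction in RM is not independent evidence.

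At any moment a small share of cells in an ESC culture switches on Zscan4, a cluster of genes on chromosome 7 that encode SCAN and zinc finger proteins and are otherwise active at the 2-cell stage of the embryo. The cells pass through this state and return from it, and ZSCAN4 is known for a role in keeping telomeres long and the genome stable. Other transcripts of the state include the Tcstv genes, named as 2-cell-stage variable group members, relatives of the translation initiation factor EIF1A, and members of the Prame family of leucine-rich repeat proteins.

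The probes behind the main results are shown as the array's designed sequences, so that the reader can see which stretch of a transcript each value stands for.
Zscan4: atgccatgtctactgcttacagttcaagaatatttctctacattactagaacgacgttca
Tcstv1: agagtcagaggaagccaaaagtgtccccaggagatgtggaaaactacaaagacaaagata
Tcstv3: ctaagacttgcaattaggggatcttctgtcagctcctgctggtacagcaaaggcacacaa
AF067063: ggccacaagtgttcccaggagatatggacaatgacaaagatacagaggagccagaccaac
Rfxap: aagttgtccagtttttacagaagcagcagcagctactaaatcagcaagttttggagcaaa
Gm12794: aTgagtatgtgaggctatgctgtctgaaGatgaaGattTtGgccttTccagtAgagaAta
LOC381535: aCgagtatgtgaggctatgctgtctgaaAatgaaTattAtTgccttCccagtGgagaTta
Capitals in the last pair mark the positions at which the probes for Gm12794 and LOC381535, now called Pramel19 and Pramel18, differ. They are identical at 52 of 60 positions and share an unbroken run of 26 bases, so each may also bind the transcript of the other. The name Zscan4 does not say which of the near-identical copies of the cluster the probe reads.

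The gene that the reporter marks was checked first. Zscan4 stood at 5.08, 5.59 and 5.03 in Zscan4+ cells of replicates 1, 2 and 3 and at 0.10, 0.21 and 0.98 in Zscan4- cells. The groups did not overlap, and the highest Zscan4- value was that of replicate 3. The rise was 4.97, 5.37 and 4.05 in the 3 pairs, a mean of 4.80 with a standard error (SE) of 0.27, or 27.8-fold, with an adjusted p of 0.0426. All p-values are those of limma, with the pairs as a block and Benjamini-Hochberg adjustment over all 42006 probes. The 3 Zscan4- libraries still gave 183.0 to 491.6 Cy3 units above background at this probe, above the negative controls. In such bulk samples, fewer cells of a type and less RNA per cell cannot be told apart. No named probe belonged to the pluripotency list or the fibroblast list, so neither ESC identity nor feeder cells could be checked with those markers.

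Across the array, 777 probes were higher in Zscan4+ cells at an adjusted p under 0.15, which is 1.85% of all, and 525 were lower, which is 1.25%. The rises were large and the falls small. Of the higher probes, 274 had risen at least 2-fold and 104 at least 3-fold, and the 104 made up 0.248% of the array. Of the lower probes, 5 had fallen at least 2-fold and 0 at least 3-fold, 1 probe was at least 3-fold lower at an unadjusted p under 0.05, and 2 were called so without replicate 3 and 1 with dim probes left out. The median of all probes moved by -0.01. Of the 104, 102 were higher in all 3 pairs, as were 15.3% of all probes with 6 values, and the other 2 lacked a value on an array. The 104 were called on these same pairs, so their agreement over pairs is no separate support. The pair-wise test of the methods, used in place of limma, called 0 probes higher and 0 lower. Among the fits with 1 replicate left out, the number of calls changed most without replicate 1 or 2. Without replicate 1 limma called 0 probes, at a lowest adjusted p of 0.226, although 118 were at least 3-fold higher at an unadjusted p under 0.05. Without replicate 2, which leaves the first extraction batch alone, 17 probes passed as at least 3-fold higher, although 112 were so at an unadjusted p under 0.05, and without replicate 3, 119 passed. Replicate 2 was the sole pair of the second batch, where no test could be made. The lower probes were not stable to the other choices either, with between 0 and 1121 called.

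**Figure D1:**
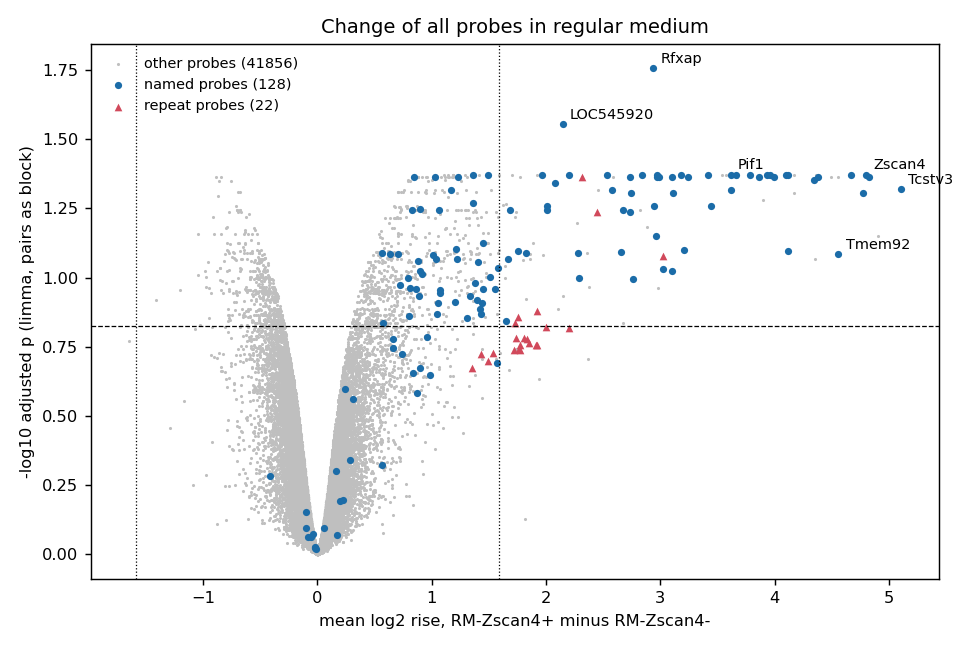
Mean log2 rise of each probe, RM-Zscan4+ minus RM-Zscan4-, against the -log10 of its adjusted p, with named probes as blue circles, repeat probes as red triangles and all others in grey. The dashed line marks an adjusted p of 0.15 and the dotted lines 3-fold; no probe sits in the upper left field beyond 3-fold, whereas 104 sit in the upper right one.

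Of the 128 named probes, 101 were higher and 0 lower (0 also at an unadjusted p under 0.05), and the 101 are 78.9% against 1.85% of all probes, a share that the choice of the list on the RA pair bears on. Their median rise was 1.43, or 2.70-fold, and 56 of them were at least 3-fold higher. The remaining 27 did not pass, and 11 of these were nevertheless above 0 in all 3 pairs. The call just inside 3-fold was BC080695 at 3.13-fold, and those just outside were 4631416L12Rik at 2.99-fold and Ercc4 at 2.94-fold.

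The Zscan4 signature list held 8 transcripts, Zscan4, 6 others of the state named by the study, and Tcstv3, which was added to them here. All 8 were higher and at least 3-fold so, beside 1.85% and 0.248% of all probes, with a median rise of 4.11. Cells were sorted on a Zscan4c reporter and the list was chosen to mark that state, so this count is not independent evidence. Tcstv3 had the largest mean rise of any named probe. It stood at 5.20, 5.55 and 5.03 in Zscan4+ cells and at -0.13, -0.43 and 1.01 in Zscan4- cells, a rise of 5.10 (SE 0.39), or 34.4-fold, with an adjusted p of 0.048. Its Zscan4- values spread more than its Zscan4+ values, with an SD of 0.76 against 0.27 (n = 3 each). Tcstv1, which like Tcstv3 lies on chromosome 13, stood at 4.70, 5.05 and 4.29 against -0.21, -0.17 and 0.40, and rose by 4.67 (SE 0.27, adjusted p 0.0426). AF067063, on the same chromosome, stood at 4.12, 4.56 and 3.42 against -0.09, 0.02 and 0.17, and rose by 4.00 (SE 0.27, adjusted p 0.0433). BC061212 stood at 3.86, 4.33 and 3.56 against -0.40, -0.31 and 0.15, and rose by 4.10 (SE 0.25, adjusted p 0.0426). The groups did not overlap at any of these genes. Over all probes with 6 values, 4.97% had all Zscan4+ levels above all Zscan4- levels, and 109 of the 128 named probes did.

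The Prame family members moved by unequal amounts. Gm12794 stood at 4.02, 4.52 and 2.91 in Zscan4+ cells and at -0.46, -0.57 and 0.13 in Zscan4- cells. Its rise was 4.48, 5.09 and 2.78 in the 3 pairs, a mean of 4.12 (SE 0.47) with an adjusted p of 0.0802, and the third pair stood clearly below the others. The Cy3 signal of Gm12794 in Zscan4- cells was 44.35, 39.62 and 69.51 units. The negative controls had 95th percentiles of 42.63, 39.58 and 48.64 on these arrays, so the rise of Gm12794 depends on values near background. LOC381535, whose probe resembles that of Gm12794, stood at 2.27, 3.95 and 2.27 against -0.16, -0.24 and -0.18, and rose by 3.02 (SE 0.39, adjusted p 0.0933). Here replicates 1 and 3 were alike and replicate 2 was higher. B020004J07Rik, now Pramel17, rose by 0.57 (SE 0.07, adjusted p 0.0813), and its group levels overlapped although each pair rose.

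The translation factor gene Eif1a and Gm4340 stood above the reference pool in both states. Eif1a stood at 4.52, 4.78 and 4.21 against 1.09, 1.08 and 1.62, a rise of 3.24 (SE 0.23, adjusted p 0.0434). Its probe is identical at 55 of 60 positions to the unnamed probe Z00035038-1, which rose by 2.59 (adjusted p 0.0434). The value for Eif1a may therefore also read a similar transcript. Gm4340 stood at 4.02, 4.32 and 3.86 against 0.83, 0.60 and 1.43, a rise of 3.11 (SE 0.26, adjusted p 0.0494). The Gm4340 probe shares a run of 31 bases with the probe of EG667568, which rose by 2.97, and one of 18 bases with that of EG624262, which rose by 1.83, so these 3 values may read each other's transcripts.

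**Figure D2:**
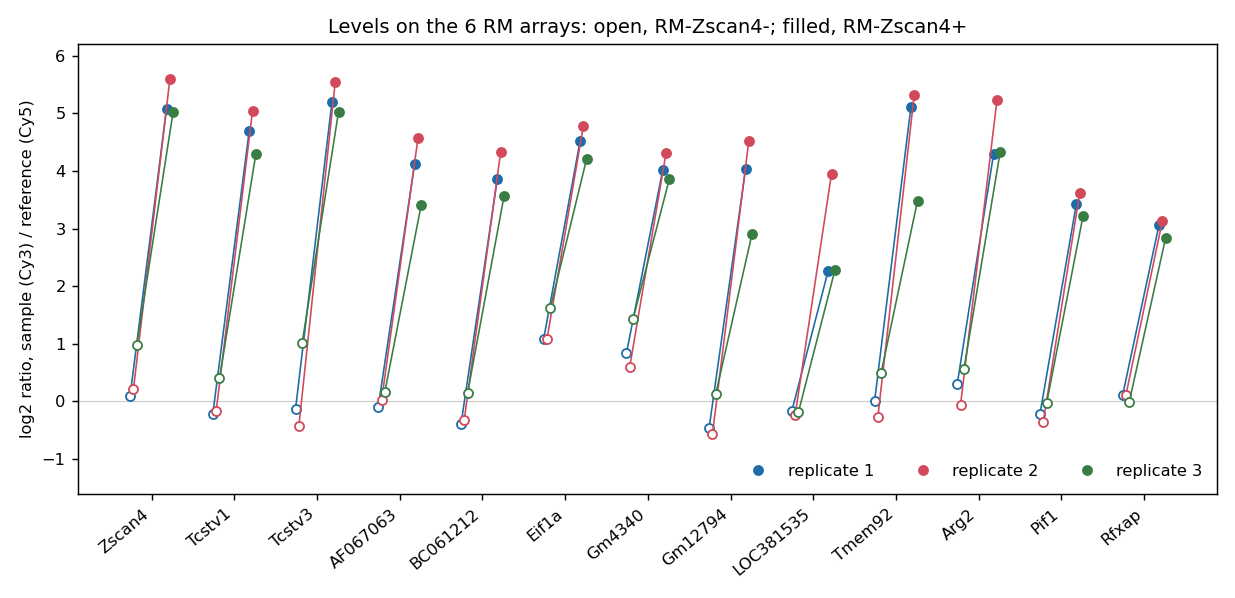
Log2 ratio of sample (Cy3) over reference (Cy5) for 13 named probes on the 6 RM arrays, with open circles for RM-Zscan4-, filled circles for RM-Zscan4+ and lines joining arrays of the same replicate number. Replicate 2 is the uppermost filled circle at each probe, and the lines of Rfxap run almost in parallel.

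Among named probes outside the signature, the largest rises were those of LOC665446 (4.83), A530040E14Rik (4.77), Tmem92 (4.56), LOC432715 (4.38), Arg2 (4.35) and 1700001F09Rik (4.12), each past the threshold and higher in all 3 pairs. Tmem92, which encodes a membrane protein, stood at 5.11, 5.32 and 3.48 in Zscan4+ cells and at 0.00, -0.27 and 0.50 in Zscan4- cells, so its rise was 5.11 and 5.59 in pairs 1 and 2 and 2.98 in pair 3 (SD 1.39, n = 3, adjusted p 0.0822). Its Cy3 signal in Zscan4- cells was 86.68, 44.51 and 105.6 units, and the value of replicate 2 was near the negative controls (95th percentile 39.58). Arg2, the mitochondrial arginase, stood at 4.30, 5.22 and 4.33 against 0.31, -0.05 and 0.56, and rose by 4.35 (SE 0.32, adjusted p 0.0444), but 1 of its Zscan4- values lay at or below the negative controls. A530040E14Rik stood at 1.78, 2.50 and 0.77 against -3.17, -3.16 and -2.92, below the reference pool in all Zscan4- samples. The Cy3 signal of this probe in Zscan4- cells was 47.2, 44.5 and 59.47 units, close to the negative controls, so its rise depends on a value near background. The order of these rises is not resolved: among the 20 named probes with the largest rise, all 19 neighbours in the order differed by less than the smaller of their SDs over pairs, which ran from 0.36 to 1.39.

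The size of the rise followed the pair. Among the 55 named probes with at least 3-fold rises and 3 complete pairs, pair 2 had the highest rise in 53 and pair 3 the lowest in 48, with medians of 2.95, 3.67 and 2.52 over the 56 probes for pairs 1, 2 and 3. Both groups took part. On the Zscan4+ side replicate 2 was the highest array for 55 of 56 probes and replicate 3 the lowest for 49, and on the Zscan4- side replicate 3 was the highest for 42 and replicate 2 the lowest for 34 of 55. Levels spread more over the Zscan4- arrays for 19 of the 56 probes, Tcstv3, Zscan4, LOC665446 and Gm4340 among them, and more over the Zscan4+ arrays for 37, such as Tmem92, Gm12794, LOC381535 and Arg2. By the times of image extraction, replicate 2 belonged to another batch than replicates 1 and 3, and the part of the batch in this order was not tested.

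A few probes rose by more even amounts over the pairs, and they were picked after their values were seen. Rfxap, on chromosome 3, encodes a subunit of the RFX complex that binds promoters of MHC class II genes. It stood at 3.07, 3.13 and 2.84 in Zscan4+ cells and at 0.11, 0.12 and 0.00 in Zscan4- cells. Its rise of 2.95, 3.02 and 2.85 varied by an SD of 0.09, against a median SD of 0.61 for named probes with at least 3-fold rises, and it had the lowest adjusted p of them, 0.0175. LOC545920 rose by 2.12, 2.22 and 2.09 (SD 0.07, adjusted p 0.028), but 1 of its Zscan4- values lay at or below the negative controls. Tdpoz5, a relative of the ubiquitin adaptor Spop, rose far less but as evenly, by 0.81, 0.90 and 0.83 (SD 0.05, adjusted p 0.0434).

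The counts by role are descriptions of a list chosen for enrichment in the RA pair. They stand beside 1.85% of all probes called higher, 0.248% at least 3-fold so, and 78.9% of the 128 named probes called higher, and nothing particular to a role was read from them.

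Genes for DNA-binding and chromatin proteins were higher in 10 of 11 cases, beside 1.85% of all probes and 78.9% of the named, 6 of them at least 3-fold, with a median rise of 1.69. After Zscan4, Hmga2-ps1, a pseudogene of a chromatin protein gene, rose by 3.96 (SE 0.24, adjusted p 0.0426). Zfp352, a zinc finger gene of the 2-cell stage, stood at 1.44, 2.34 and 1.53 against -0.01, 0.01 and 0.04, and rose by 1.76 (SE 0.20, adjusted p 0.0802). The smallest rise was that of Arid4a, which encodes a partner of the retinoblastoma protein, at 0.90 (SE 0.08, adjusted p 0.0566). Zfp296, a zinc finger gene of pluripotent cells, stood at 3.28, 3.72 and 3.62 against 2.12, 2.42 and 3.21. Its difference of 0.95 (SE 0.19) did not pass as reported, with an adjusted p of 0.164, and its groups did not overlap. It passed in Cy3 alone (adjusted p 0.128), with dim probes left out (0.137), with normexp and loess (0.107) and without replicate 3 (0.0873). In the other settings it did not pass.

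Of the helicase and repair genes, both were called higher, Ercc4 less firmly. Pif1, a helicase that acts at telomeres, G-quadruplexes and replication forks, stood at 3.42, 3.61 and 3.21 in Zscan4+ cells and at -0.21, -0.35 and -0.03 in Zscan4- cells. It rose by 3.62 (SE 0.15, adjusted p 0.0426), or 12.2-fold. Ercc4, the nuclease partner of ERCC1 in excision repair, stood at 1.48, 2.01 and 1.60 against 0.11, -0.19 and 0.51, and rose by 1.55 (SE 0.23, adjusted p 0.11). Its call was lost with the extraction batch as a block, at an adjusted p of 0.165. It was also lost without replicate 1 (0.322), 2 (0.251) or 3 (0.161), and with the methods' t-test.

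Ubiquitin and protein folding genes were higher in 4 of 6 cases, again beside 1.85% and 78.9%. Lonrf3, which has a RING finger and a LON domain, led them at 2.01 (SE 0.18, adjusted p 0.0569), from -1.26, -1.74 and -1.53 in Zscan4- cells to 0.37, 0.76 and 0.37 in Zscan4+ cells. Fbxo15, an F-box gene under OCT4 and SOX2 in ESCs, stood at 5.22, 5.56 and 4.80 against 4.02, 4.84 and 4.14. It rose in every pair, by a mean of 0.86 (SE 0.13, adjusted p 0.11), but its groups overlapped, and without the pairing its adjusted p was 0.566. In Cy3 alone it rose by 1.94 (adjusted p 0.00859), while Cy5 was higher by 1.08. Dub2, a deubiquitinase gene, stood at 0.42, 1.00 and 0.41 against -0.19, -0.44 and -0.04, and its difference of 0.83 (SE 0.21) had an adjusted p of 0.221. Dub2 passed in Cy3 alone (adjusted p 0.0903) and with normexp and loess (0.119), but not in the other settings. The heat shock gene Hspa1a varied most in this list, with 1.55, 2.53 and 0.63 in the 3 pairs and an adjusted p of 0.203.

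Metabolic and redox enzymes were higher in 3 of 5 cases, beside 1.85% of all probes and 78.9% of the named. Below Arg2 came Mgll, the lipase that cleaves monoacylglycerols, which stood at 2.38, 2.99 and 1.61 against 0.09, -0.10 and 0.13 and rose by 2.29 (SE 0.32, adjusted p 0.1). The Cy3 signal of Mgll in Zscan4- cells was 53.79, 41.94 and 54.43 units, near the negative controls, with 95th percentiles of 42.63, 39.58 and 48.64. Slc27a2, a fatty acid transporter and acyl-CoA synthetase, was at the other end, at 2.46, 3.22 and 2.85 against 3.45, 3.11 and 3.21, a difference of -0.42 (SE 0.22, adjusted p 0.521) whose pairs disagreed in sign.

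Genes of neural and other lineages were few, and 2 of the 3 were higher, beside the same 1.85% and 78.9%. Lmx1a, a homeobox gene of midbrain dopaminergic progenitors, stood at 1.85, 2.16 and 1.64 against 0.51, 0.09 and 0.00, and rose by 1.69 (SE 0.15, adjusted p 0.0571), or 3.22-fold. Bdnf, the neurotrophin, stood at -1.67, -1.84 and -1.75 against -2.70, -2.81 and -2.16, and rose by 0.81 (SE 0.14, adjusted p 0.138). Its call was lost when the replicate block was dropped (adjusted p 0.312), with the extraction batch as block (0.229) and in Cy3 alone (0.26). It was also lost with outlier spots kept (0.168), in the series matrix (0.167), with the methods' t-test and without replicate 1 or 2. Cdh20, a cadherin, stood at 0.08, -0.18 and -0.08 against -0.10, -0.15 and -0.11, a difference of 0.06 (SE 0.07, adjusted p 0.803). Signalling, adhesion and secreted proteins were higher in 8 of 12 cases (1.85% of all probes, 78.9% of the named) with 2 at least 3-fold (0.248% of all probes), from the galectin gene Lgals4 at 3.62 (SE 0.28, adjusted p 0.0484) to the parathyroid hormone receptor gene Pthr1 at -0.10 (SE 0.08, adjusted p 0.702). The Cy3 signal of Lgals4 in Zscan4- cells was 52.75, 41.42 and 80.43 units. The negative controls had 95th percentiles of 42.63, 39.58 and 48.64, so its rise depends in part on values near background. Over all probes tested the median was -0.01, beside list medians that ran from 0.81 for the neural and lineage genes to 4.11 for the signature.

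**Figure D3:**
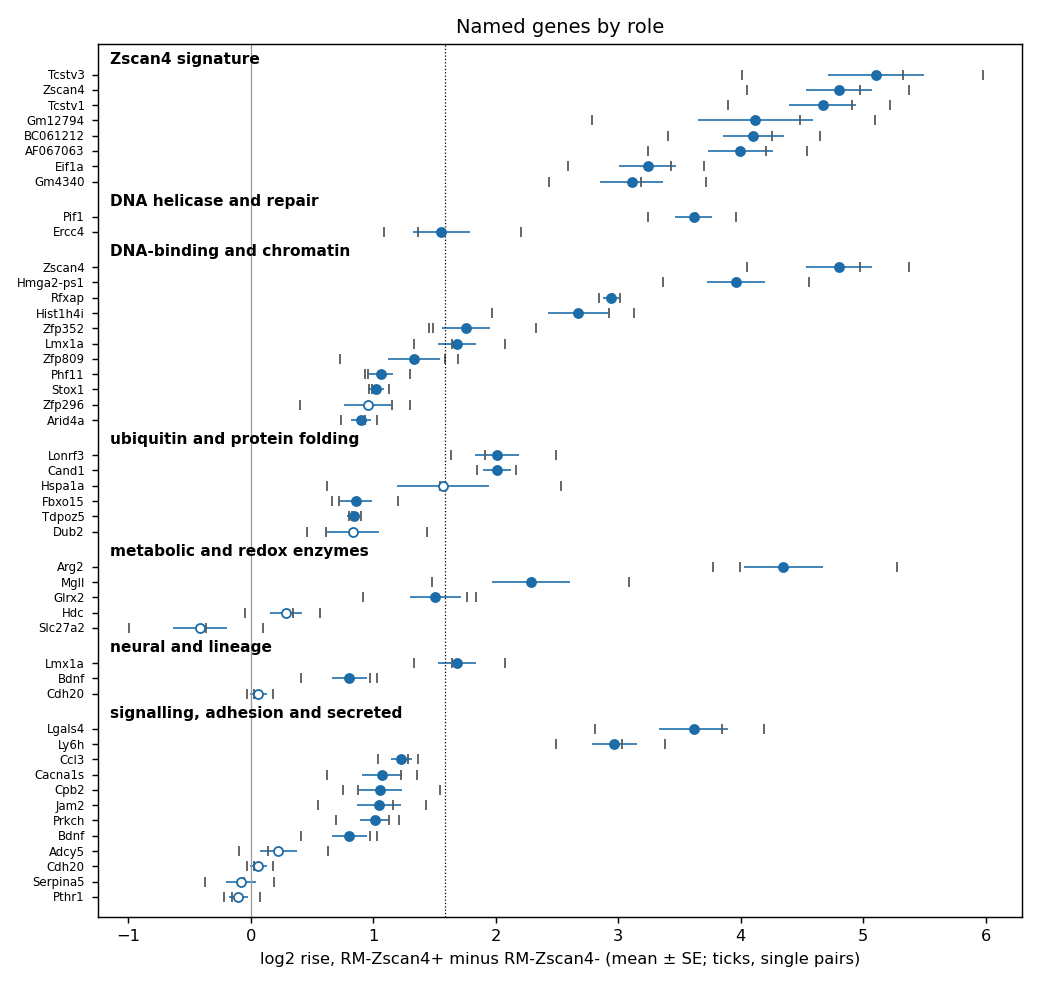
Mean log2 rise with its SE for the named genes of 7 role lists, with ticks for the 3 single pairs. Filled circles passed an adjusted p of 0.15, open circles did not, and the dotted line marks 3-fold; all 8 signature genes lie to the right of it.

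Both dyes moved. Since the Cy5 channel held the same reference pool on every array, each channel was also compared alone, after scaling to the 75th percentile of its array. At the 56 named probes with at least 3-fold rises, the median rise was 3.48 in Cy3 and 0.31 in Cy5, and Cy5 was higher in mean for 45 of them. Zscan4 rose by 6.25 in Cy3 and by 1.45 in Cy5, Tcstv3 by 7.13 and 2.02, and Eif1a by 5.24 and 2.00. The ratio was therefore smaller than the rise of the sample channel for these genes. Among other genes the reference channel hardly moved, as for Arg2, at 4.40 in Cy3 and 0.05 in Cy5, and Zfp352, at 1.78 and 0.02. What moved the reference channel was not tested.

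Of the 104 probes that were at least 3-fold higher, 48 had no gene name. The largest of the unnamed, Z00058166-1, stood at 5.93, 6.17 and 5.73 in Zscan4+ cells and at 0.99, -0.04 and 2.16 in Zscan4- cells, and rose by 4.91 (SE 0.52, adjusted p 0.0705). Z00060619-1 followed at 5.23, 5.40 and 4.48 against 0.00, 0.23 and 0.47, and rose by 4.80 (SE 0.27, adjusted p 0.0426). Among the probes called lower, the largest falls were those of Z00046387-1, from 2.65, 2.15 and 2.40 in Zscan4- cells to 1.58, 0.07 and 1.31, a fall that averaged -1.42 (SE 0.23, adjusted p 0.12), and of Z00021597-1, which averaged -1.20 (SE 0.18, adjusted p 0.111).

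A family of 22 unnamed probes, picked after its values were seen, shares runs of 18 or more bases with one another on either strand. The 20-base run held by the most of them, 8, is given here in the orientation of the A-rich strand.
Repeat run: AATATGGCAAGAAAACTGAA
The array holds 1 probe with this run and 7 with its reverse complement. It reads like the major satellite, the tandem repeat of mouse pericentromeres, which is stated from general knowledge since no consensus was used here. The 3 probes whose sequence is A-rich (45.0% to 46.7% A) and the 19 whose sequence is T-rich (at least 41.7% T) behaved differently in the separate channels.

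The family was picked after its values were seen, so counts of its probes are not independent evidence. The A-rich probes were all called higher, beside 1.85% of all probes, and at least 3-fold so, beside 0.248%. Their groups did not overlap, as was so for 4.97% of the probes with a value on every RM array. Their median level in Zscan4+ cells was 2.15, 1.15 and 0.84, and in Zscan4- cells -1.01, -0.85 and -1.71. The rise had medians of 3.03, 1.88 and 2.55 in the 3 pairs and ran over probes from 2.32 to 3.02 in the mean. It lay in the sample channel, with Cy3 medians of 4.51, 2.73 and 3.03, and all 3 probes were called higher in Cy3 alone. The reference channel was higher too, with Cy5 medians of 1.48, 0.75 and 0.59, and above 0 for all 3 probes in all 3 pairs. Of the 22 probes, 2 were saturated, both A-rich and each on the Zscan4+ array of replicate 1. The Zscan4+ level and the ratio and Cy3 rises given for pair 1 are those of one of them, Z00063589-1. They are lower bounds, as are the mean rises of both.

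The T-rich probes also had a higher ratio in all 3 pairs, 19 of 19, with medians of 2.50, 0.74 and 2.09. Of the probes with a value on every RM array, 15.3% were higher in all 3 pairs. But 3 of the 19 were called, beside 1.85% of all probes, and all 3 at least 3-fold so, beside 0.248%. Here the ratio rose with a drop in the reference channel. Cy5 differed by medians of -2.23, -0.86 and -1.12 and was lower in all 3 pairs for 19 of 19 probes, whereas Cy3 differed by medians of 0.25, -0.15 and 0.94, was below 0 in pair 2 for 14 probes, and gave 0 calls of 19 in Cy3 alone. In both orientations the rise was lowest in pair 2, for 22 of 22 probes, the pair in which the Zscan4 signature rose most. In the RA pair the A-rich probes had a median rise of 1.80 and the T-rich probes one of 0.11.

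**Figure D4:**
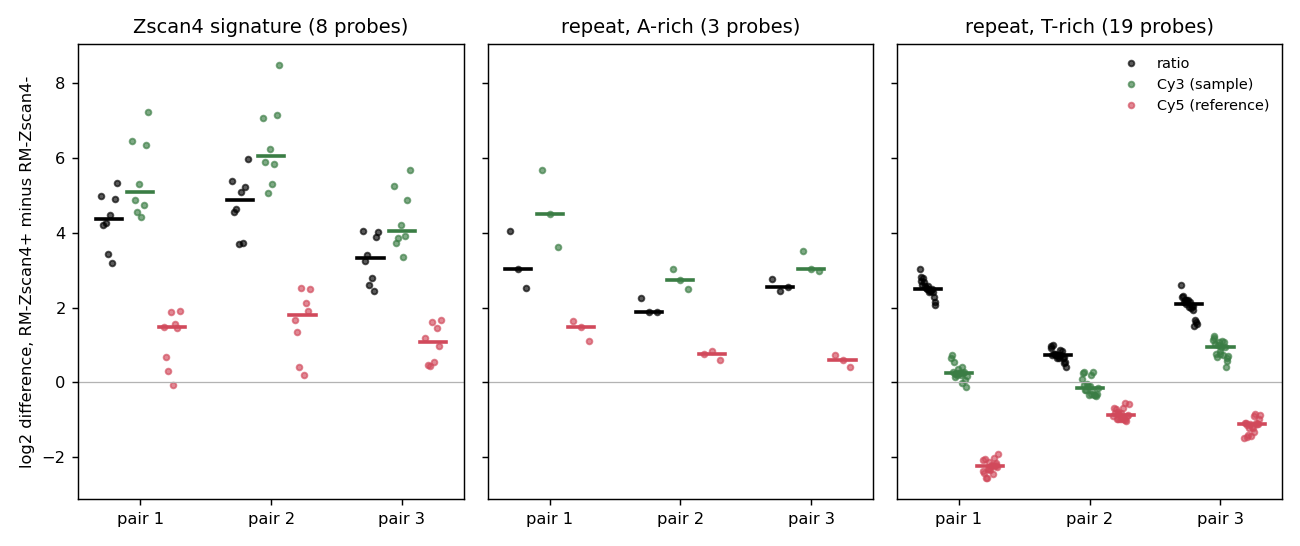
Log2 difference between RM-Zscan4+ and RM-Zscan4- in the ratio (black), in Cy3 alone (green) and in Cy5 alone (red), by pair, with a point per probe and a bar at the median. For the T-rich repeat probes the red medians lie below 0 in each pair and the green medians at 0.25, -0.15 and 0.94 in pairs 1, 2 and 3, whereas for the signature and the A-rich probes the green points lie highest.

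Promoters of 300 bases, from 250 before to 50 after the transcription start in RefSeq (GRCm38.p6), were at hand for 54 of the named genes, after 84 of the 128 names had been matched to a current symbol. The 12-base word found in the most of these promoters was ACACCTTTAATC on either strand, tied with 2 others. It occurred in 5 of the 54 genes (9.26%), against 53 of all 27025 genes (0.196%), a share that the choice of the word on these genes bears on. The 5 genes were Gm4340, which rose by 3.11, Zfp352 (1.76), 5830484A20Rik, now Sp110 (0.90), LOC229571, now Tdpoz8 (0.87, adjusted p 0.261, not called), and B020004J07Rik, now Pramel17 (0.57). The windows of Gm4340 and Pramel17 share a run of 61 bases, so these occurrences are not independent. The word TGCACAC, known as a binding sequence of ZSCAN4, was found on either strand in 3 of the 54 named genes (5.56%) and in 5.02% of all genes.

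The Zscan4c window, the gene whose promoter drives the reporter, is shown with 3 of the windows that hold the word, which stands in capitals. They lie at chr7:11005495-11005794 (+) for Zscan4c, chr10:104193792-104194091 (+) for Gm4340, chr4:101843973-101844272 (-) for Pramel17 and chr4:90218570-90218869 (+) for Zfp352, where the word recurs 3 times within a row of similar units.
Zscan4c: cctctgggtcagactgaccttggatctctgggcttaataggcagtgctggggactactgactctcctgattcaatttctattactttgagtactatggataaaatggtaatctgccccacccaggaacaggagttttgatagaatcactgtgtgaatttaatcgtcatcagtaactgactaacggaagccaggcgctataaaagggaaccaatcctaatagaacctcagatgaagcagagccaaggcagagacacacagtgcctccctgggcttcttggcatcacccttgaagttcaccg
Gm4340: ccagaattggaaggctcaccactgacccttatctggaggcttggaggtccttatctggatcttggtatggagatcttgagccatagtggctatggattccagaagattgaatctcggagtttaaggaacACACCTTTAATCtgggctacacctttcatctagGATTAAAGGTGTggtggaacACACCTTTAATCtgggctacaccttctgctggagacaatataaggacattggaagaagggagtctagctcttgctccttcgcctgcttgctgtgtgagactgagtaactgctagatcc
Pramel17: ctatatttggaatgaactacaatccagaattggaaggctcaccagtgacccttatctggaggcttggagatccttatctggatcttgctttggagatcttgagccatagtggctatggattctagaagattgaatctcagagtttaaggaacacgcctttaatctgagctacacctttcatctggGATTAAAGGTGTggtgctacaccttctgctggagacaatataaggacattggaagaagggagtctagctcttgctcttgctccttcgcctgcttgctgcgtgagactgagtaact
Zfp352: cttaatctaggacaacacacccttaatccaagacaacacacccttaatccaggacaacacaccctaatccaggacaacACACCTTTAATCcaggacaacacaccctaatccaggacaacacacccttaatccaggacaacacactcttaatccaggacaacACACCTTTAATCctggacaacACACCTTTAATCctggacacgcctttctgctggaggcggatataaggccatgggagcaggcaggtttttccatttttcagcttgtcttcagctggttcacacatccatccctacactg
A match of letters is a description of these windows and says nothing of what binds there.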

How the data were processed

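Total RNA of sorted cells (Cy3) and of a pooled mouse reference (Cy5) was hybridised to Agilent 60-mer arrays. The authors deposited, per array, the intensity of every spot from Feature Extraction A.7.5.1, per the file headers, background-subtracted and dye-normalized within the array, and a deposited table of log10 values, used as an alternative. Its columns had medians of 2.94 to 2.95 and equalled the scanner ratio, shifted per probe, within 0.01 for over 99.5% of values. From processed intensities, log2(Cy3/Cy5) was computed for non-control spots, without outlier-flagged spots (24 to 228 an array), and spots of 1 probe were averaged. Of 42006 probes, 845 lacked a value on at least 1 RM array and were fitted on the others. lmFit and eBayes of limma 3.58.1 (R 4.3.3) were run with the replicate number as a block, Benjamini-Hochberg adjustment and a false discovery rate of 0.15, the rate of the methods. The script was tested on simulated data. The number of arrays limits precision.

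Numbers come from the labels. Arrays were paired by these numbers. As a check without a test, deviations from the group means correlated across 41161 probes by 0.388, 0.562 and 0.592 within replicates 1, 2 and 3. Extraction times put replicates 1 and 3 in one batch and replicate 2 in another. Gene names came from the study's supplementary list by probe ID. Values were printed for the signature, the 10 largest named rises past the threshold and higher in all pairs, both ends of each role list, 11 genes of interest, and at most 2 unnamed probes in each direction. The list of translation and RNA handling genes is not reported here. Genes outside this rule were chosen after their values were seen. Members and lists were chosen with earlier results of these data known. Of the lists, 2-cell genes had 6 of 19 members named (5 higher) and neuroectoderm 3 of 9 (2 higher), while pluripotency, endoderm, mesoderm, fibroblast and housekeeping genes had 0. The flag for signal well above background marked nearly all probes and was not used.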

Additional observations from a re-analysis of the deposited data

How the results depend on the processing

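The count of probes at least 3-fold higher lay between 81 and 122 with the replicate block dropped, the extraction batch as the block, normexp (offset 50) with loess, Cy3 alone, the series matrix, outlier spots kept and dim probes left out, against 104 as reported. Without the replicate block 81 remained, all of them among the 104. The count was 52 at a false discovery rate of 0.05, 274 at 2-fold, 0 with the methods' t-test (99 at an unadjusted p under 0.05), and between 0 and 119 when 1 replicate was left out. All probes higher numbered 777 as reported, 146 with no replicate block, 182 with the batch as block, 464 in Cy3 alone, 115 at a rate of 0.05, 0 with the methods' t-test and 0 to 400 without 1 replicate. They numbered 575 with outlier spots kept, 574 in the series matrix, 942 with dim probes left out and 1121 with normexp and loess. All probes lower numbered 525 as reported, 21 with no replicate block, 56 with the batch as block, 75 in Cy3 alone, 310 with outlier spots kept and 313 in the series matrix. They numbered 782 with dim probes left out, 1121 with normexp and loess, 6 at a rate of 0.05, 0 with the methods' t-test and 0 to 75 without 1 replicate. The cause was not tested, except that fewer arrays leave fewer degrees of freedom. No direction of the 31 followed genes turned under any setting, and the median rise of the 128 named probes stayed between 1.18 and 1.63. An alternative chosen after seeing the data gave a median for the 22 repeat probes of 0.36 in Cy3 alone against 1.79 in the ratio. Bdnf and Fbxo15 were called as reported, but not without the replicate block or with the extraction batch as the block. Both calls were also lost with the methods' t-test and without replicate 1 or 2, as were most others. Of the 31 followed genes, 26 were called as reported. All 26 lost the call with the methods' t-test and without replicate 1. Without replicate 2, 23 lost it, and without replicate 3, 4 did, Ercc4, Fbxo15 and Zfp352 among them. Zscan4 had an adjusted p of 0.325 with the methods' t-test, and of 0.226 and 0.199 in limma without replicates 1 and 2.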
